A study of Drosophila melanogaster with 17 samples.

Results

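The cytoplasmic ribosomal protein genes were followed in eye imaginal discs of 3rd instar Drosophila larvae. A gene was taken when a probe set of the array was annotated to it alone and its symbol began with RpL or RpS. RpS19b, RpS5b and RpL22-like were left out, and a gene with several such probe sets was represented by its brightest on average. The rule gave 38 genes with 44 probe sets, out of 11982 genes with a probe set of their own. By role, 11 encoded proteins of the small subunit and 19 proteins of the large subunit, among them the stalk proteins RpLP0, RpLP1 and RpLP2. A further 5 were paralogs of subunit genes (RpL37-2, RpS28a, RpS10a, RpS28-like and RpL10Aa). The last 3, RpL24-like, RpL7-like and RpLP0-like, carry ribosomal protein names, but their relatives in yeast (Rlp24, Rlp7 and Mrt4) are assembly factors that bind the maturing large subunit. Of the 89 protein-coding RpL and RpS symbols in the RefSeq gene table, 51 had no probe set annotated to them alone and were not analysed here. In that annotation 4720 tested probe sets carried no symbol, so the array may still hold probes for these genes. The rule uses symbols and mean signal and no difference between groups, and was set with earlier results of these data known.

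Ribosomes translate messenger RNA, and each is built from ribosomal RNA and a fixed set of ribosomal proteins that are needed in matched amounts. The small subunit decodes the message, and the large subunit joins the amino acids and carries a stalk that recruits translation factors. Growing cells spend much of their transcription on ribosomal protein genes, and Drosophila that lack 1 copy of such a gene often show the Minute phenotype of slow growth and thin bristles. The subunits are put together in the nucleolus with the help of many assembly factors, which leave before the ribosome begins to work.

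Discs were wild type, mutant for dDP (Dp, which forms the DNA-binding dimer with E2F proteins), or deleted for de2f1 in the posterior of the disc. Each genotype was left untreated or was exposed to 40 Gy of gamma radiation and dissected 4 h later, all larvae being raised at 25 °C on standard food. Every group held 3 biological replicates except irradiated wild type discs, of which replicates 1 and 3 were analysed. The dDP allele, the means of deleting de2f1 and the number of discs per sample are not given in the sources used here, and the anterior of de2f1 discs keeps its gene by design. RNA from 50 ng per sample was measured on the Affymetrix Drosophila Genome 2.0 array, and all values are log2 probe set signals as deposited.

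The 17 arrays had medians of 5.82 to 5.99, and the 9 eye disc markers averaged 10.48 to 10.86 on every array. Dp read 8.06 to 8.94 on the dDP arrays and 10.04 to 10.50 on the others. Signals from other tissues were uneven. The 11 salivary gland markers averaged 5.70 to 6.78 on the untreated dDP arrays and 6.50 on de2f1 untreated array 1, against 9.18 to 11.90 on the other arrays apart from dDP irradiated array 1 at 7.08. These markers did not move together. On dDP untreated array 1 ng1, ng2 and ng3 read 11.41, 10.12 and 11.86, while the Sgs genes read 4.73 to 5.73. On dDP irradiated array 1 they read 10.17, 10.69 and 11.26, and the Sgs genes 5.45 to 7.27. For the 5 fat body markers the mean was 12.27 on array 1 of untreated dDP and 6.12 to 10.66 on the remaining arrays. The 12 hemocyte markers averaged 7.80 to 8.41 on dDP arrays and up to 10.34 on the rest, with no overlap, and the 4 ring gland markers 6.81 to 8.27 and 8.50 to 9.58. The difference between 3-prime and 5-prime actin control probe sets, a sign of RNA length, was 3.05 and 3.26 on dDP untreated arrays 2 and 3 and 1.69 to 2.28 on the other 15 arrays. What part these differences have in the results below was not tested beyond the values given.

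Of the 30 subunit genes, 29 were read at the very top of the array. Their means over the 17 arrays ran from 14.15 for RpL27, a large subunit protein, to 14.68 for RpL41, the smallest protein of the large subunit. The brightest signal on any array was 14.72 to 14.77. All 29 were among the 100 probe sets with the highest means, at ranks 2 to 91. RpL34a, also of the large subunit, lay lower at 13.29. The 3 assembly factor genes followed at 12.39 (RpL24-like), 11.90 (RpL7-like) and 10.77 (RpLP0-like), and the 5 paralogs at 4.75 to 6.43. RpS10a, RpS28-like and RpL10Aa were near the lower quartile of the arrays (4.51 to 4.60), and RpS28a and RpL37-2 near or above their medians. Levels of different probe sets depend on their probes, so these values place each gene on the scale of the array and do not rank transcript amounts.

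The bright subunit genes hardly moved. The range of a gene over all 17 arrays had a median of 0.0907 among the 29, against 0.491 over all 18769 probe sets tested, and the median SD between replicates was 0.0153 against 0.0824. A narrow range was general at this height, since the 109 probe sets with means of 14 or more had a median range of 0.102. RpL15, of the large subunit, ran from 14.60 to 14.65, RpS15, of the small subunit, from 14.51 to 14.55, and the stalk base protein RpLP0 from 14.36 to 14.41. RpL27 had the widest range, 0.406, followed by RpL37-1 at 0.234. Whether real RNA differences were compressed at the top of the scale was not tested.

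**Figure D1:**
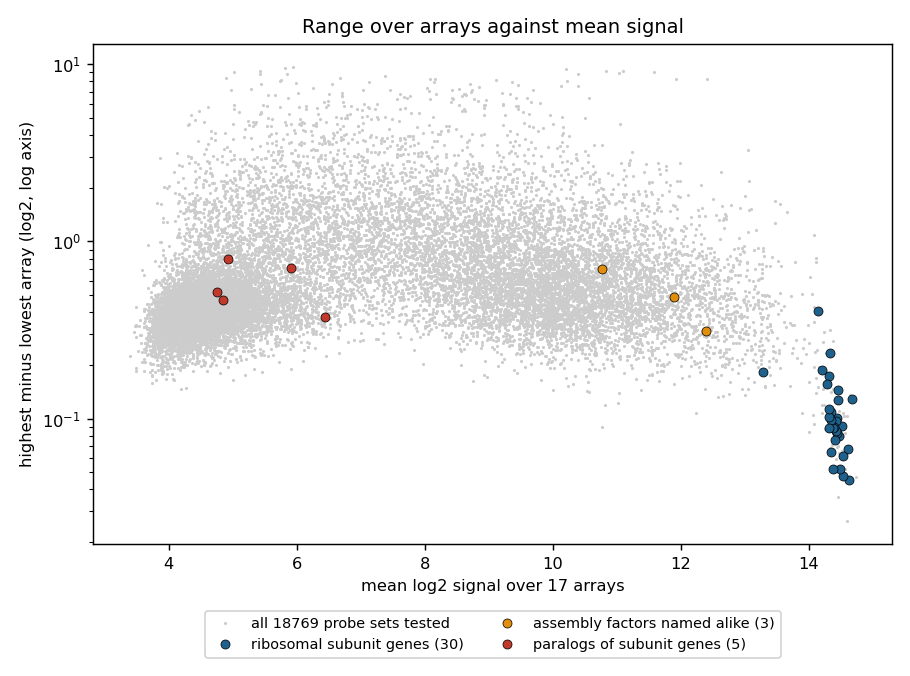
Highest minus lowest array (log2 units, on a logarithmic vertical axis) against mean log2 signal over the 17 arrays (horizontal axis) for all 18769 probe sets tested (grey) and for the 38 ribosomal protein genes, coloured by role. The 29 bright subunit genes form a tight group at the lower right with a median range of 0.0907, while the assembly factor genes and the paralogs lie to the left with wider ranges.

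**Figure D2:**
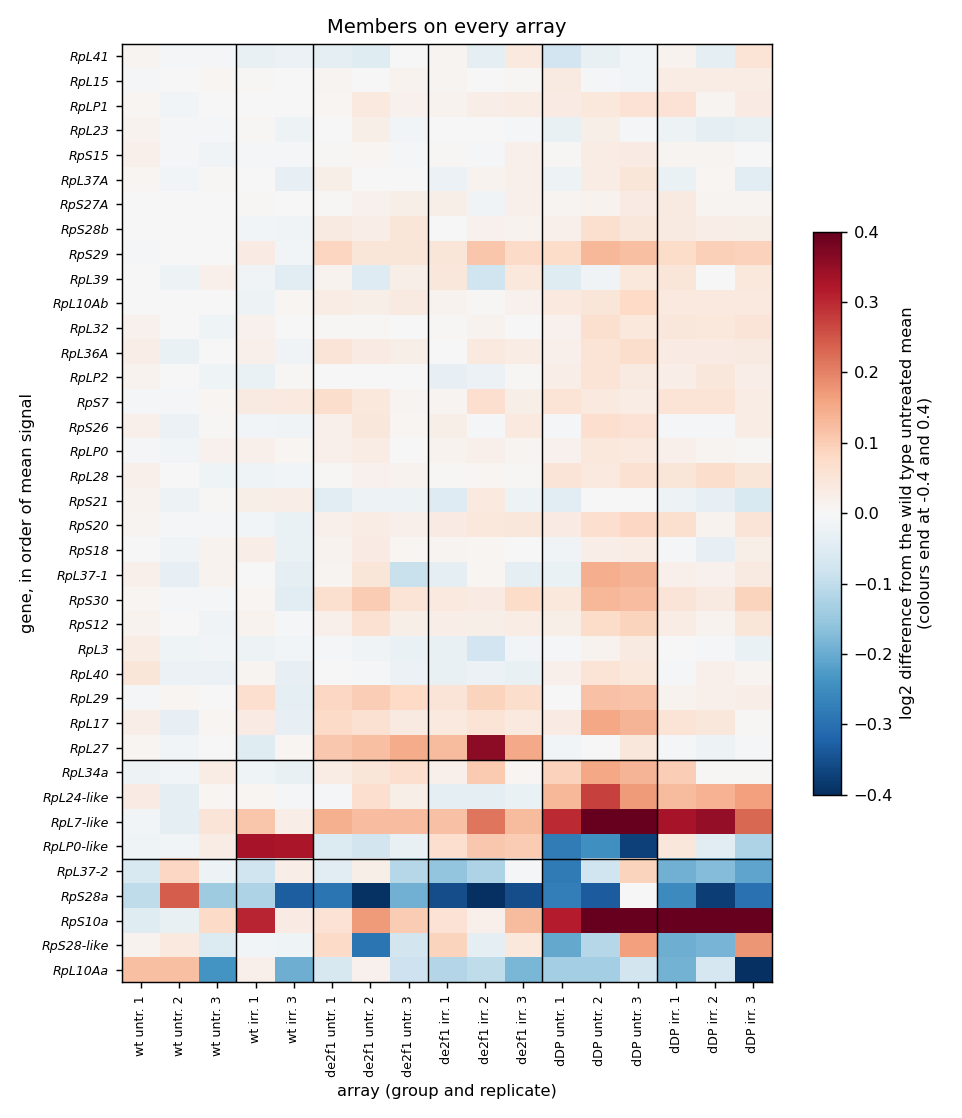
Difference of each of the 38 genes (rows, ordered by mean signal) from its own mean in untreated wild type discs (log2, colour, ending at -0.4 and 0.4) on each of the 17 arrays (columns, by group), with lines between the groups and between bright, middle and low genes. Most rows of the bright genes are pale. RpLP0-like, RpL7-like, RpL24-like and RpS10a show blocks of colour that follow the groups, and RpL27 stands out on the de2f1 arrays.

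The first question was whether radiation changed these genes. In wild type discs 1 of the 38 genes rose, RpLP0-like, and none fell, where 4.51% of all probe sets were called (limma, Benjamini-Hochberg adjusted p under 0.05 over all 18769). In dDP discs it was again RpLP0-like alone, against 8.84% of all probe sets. In de2f1 discs no member was called, against 2.30% of all probe sets, and 1 member had an unadjusted p under 0.05. P-values here rest on the spread between these samples, drawn towards a prior SD of 0.0935 shared by all probe sets. Replicates are biological according to the labels. The bright subunit genes had a median replicate SD of 0.0153, so their standard errors are wider than their own replicates would give. With a trended and robust prior the counts were again 1 in wild type, 1 in dDP and 0 in de2f1 discs.

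None of the 30 subunit genes passed the test after radiation in any genotype. Changes of the 29 bright genes ran from -0.03 to 0.04 in wild type discs, from -0.03 to 0.09 in de2f1 discs and from -0.07 to 0.05 in dDP discs, where the median standard error of a change was 0.041, 0.036 and 0.036. Their medians were -0.01, -0.01 and -0.02, and the medians over all probe sets were 0.00, -0.01 and -0.03. In wild type discs the arrays of irradiated and untreated samples were apart for 2 higher and 3 lower bright genes, where 15.2% and 18.2% of all probe sets were apart in each direction. The higher ones were RpS7 and RpS21 and the lower ones RpL41, RpS28b and RpS20. In dDP discs no bright gene was apart higher and 2 were apart lower (8.75% and 12.1% of all probe sets), and in de2f1 discs 1 was higher and 3 were lower (9.10% and 11.7%). These shares did not exceed those of the whole array.

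RpLP0-like was the member that responded to radiation. Its relative Mrt4 in yeast holds the place of the stalk protein P0 on the maturing large subunit. Wild type discs read 10.76, 10.77 and 10.81 untreated and 11.11 and 11.11 irradiated. The de2f1 discs read 10.73, 10.71 and 10.75 untreated and 10.85, 10.89 and 10.88 irradiated. The dDP discs read 10.50, 10.54 and 10.41 untreated and 10.83, 10.73 and 10.66 irradiated. Every irradiated array lay above every untreated array of its genotype. The rise was 0.33 ± 0.06 (SE, n = 2 against 3, 1.26-fold, adjusted p = 0.00217) in wild type and 0.26 ± 0.05 (n = 3 against 3, 1.20-fold, adjusted p = 0.00464) in dDP discs. In de2f1 discs the difference was 0.14 ± 0.05 (adjusted p = 0.208) and did not pass. The test of the difference itself did not pass. The change in de2f1 discs was smaller than in wild type by 0.18 ± 0.07 (unadjusted p = 0.0263, adjusted p = 1), and in dDP discs by 0.07 ± 0.07 (adjusted p = 0.786). Among all 38 members no difference of the radiation effect was called, where 0.202% of all probe sets were called for dDP and 0.0533% for de2f1. At an unadjusted p under 0.05 the counts of members were 0 and 1. Without untreated arrays 2 and 3, which leaves array 1 alone in the untreated dDP group, the rise in dDP discs was 0.24.

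Several other assembly genes rose after radiation in wild type and dDP discs, and eIF6 in all genotypes. Of 16 measured genes in a list of nuclear and cytoplasmic assembly factors, 5 rose and none fell in wild type discs, 1 rose in de2f1 discs and 6 rose in dDP discs (4.51%, 2.30% and 8.84% of all probe sets were called), and the median changes were 0.21, 0.03 and 0.14. With each array centred on its median the counts were 4, 1 and 5. Without dDP untreated arrays 2 and 3, which leaves array 1 alone, the median change in dDP discs was 0.13. eIF6, which keeps the large subunit from joining the small one too early, was called in all genotypes. It read 11.14, 10.99 and 11.06 in untreated and 12.44 and 12.36 in irradiated wild type discs, 11.08, 11.08 and 11.03 against 12.02, 12.10 and 12.01 in de2f1 discs, and 10.94, 11.30 and 11.50 against 12.26, 12.50 and 12.32 in dDP discs. No untreated array reached any irradiated one. The rise was 1.34 ± 0.12 (adjusted p = 9.5e-06), 0.98 ± 0.11 (adjusted p = 0.000114) and 1.12 ± 0.11 (adjusted p = 2.46e-05). In wild type discs bys, a factor of small subunit assembly, rose by 0.27 ± 0.05 (adjusted p = 0.00383), and Nop56, of the box C/D particles that guide methylation of ribosomal RNA, rose by 0.24 ± 0.05 (adjusted p = 0.00644). In dDP discs Tsr1, of late small subunit maturation, rose by 0.25 ± 0.06 (adjusted p = 0.0155), and the nucleolar GTPase Ns1 rose by 0.40 ± 0.09 (adjusted p = 0.0177). Without dDP untreated arrays 2 and 3, which have the large actin differences, the changes were 0.15 and 0.14.

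The second question was whether the mutants differed from wild type. In untreated discs 6 of the 38 genes (15.8%) were called between dDP and wild type, 5 higher and 1 lower, where 28.0% of all probe sets were called. With each array centred on its median, the split was 2 higher and 1 lower. The higher genes were RpS10a, RpL7-like, RpL24-like, RpL34a and RpS29, and the lower gene was RpLP0-like. In irradiated discs 4 members (10.5%) were called between dDP and wild type, RpS10a, RpL7-like and RpL24-like higher and RpLP0-like lower, against 23.2% of all probe sets. Centring gave 1 higher and 1 lower. These comparisons use bulk discs, in which fewer cells of a type and less RNA per cell cannot be told apart.

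Between untreated de2f1 and wild type discs no member was called, against 8.99% of all probe sets, and 3 had an unadjusted p under 0.05. They were RpS28a, a paralog of a small subunit gene (-0.29, adjusted p = 0.122), RpL7-like (0.13, adjusted p = 0.176) and RpL27 (0.13, adjusted p = 0.199). In irradiated discs RpL27 was higher and RpLP0-like lower in de2f1, against 8.63% of all probe sets, and centring left RpLP0-like alone. Directly between the mutants, 4 members were called in untreated discs (10.5%, against 22.3% of all probe sets) and 3 in irradiated discs (7.89%, against 25.9%). In the first of these dDP was higher for RpS10a, RpL7-like and RpL24-like and lower for RpLP0-like, and centring gave 0 higher and 2 lower. In the second dDP was higher for RpS10a and RpL24-like and lower for RpL27, and centring gave 1 higher and 2 lower. The share of members called was below that of the array in every comparison of genotypes, but the classes differed. Of the 29 bright genes 0 or 1 was called in each. Of RpL34a and the 3 assembly factor genes, 4 were called for untreated dDP against wild type. There were 3 for untreated dDP against de2f1 and 3 for irradiated dDP against wild type. Irradiated de2f1 against wild type and irradiated dDP against de2f1 gave 1 each, and untreated de2f1 against wild type 0. These comparisons share arrays, the same wild type discs serving both mutants.

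**Figure D3:**
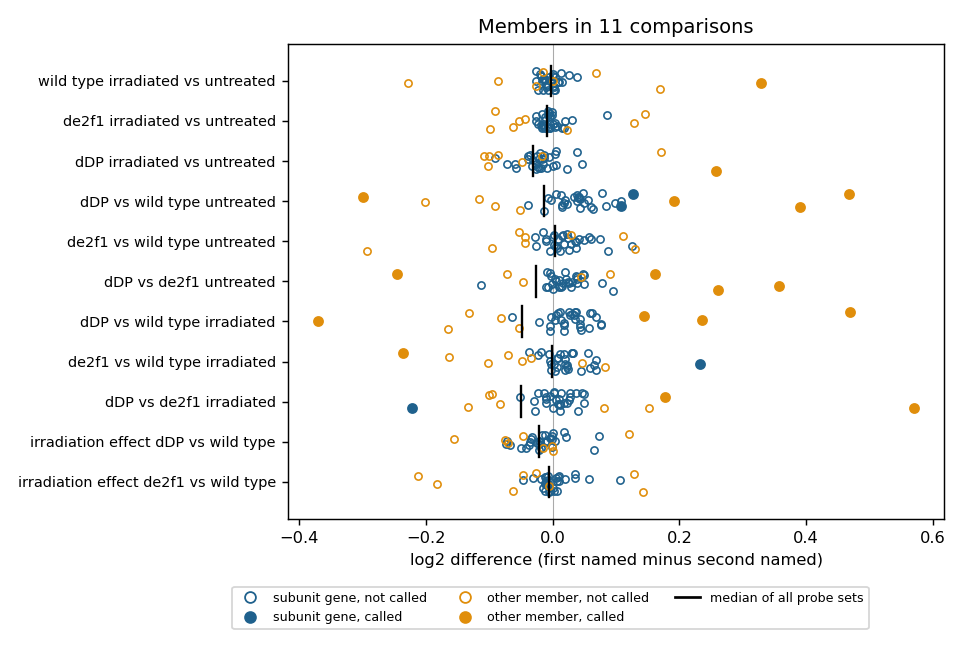
Difference of each member (log2, horizontal axis) in each comparison (rows, with the differences of the radiation effect last), as filled points for members called at an adjusted p under 0.05 and open points for the others. Subunit genes are blue, the other members orange, black ticks mark the median of all probe sets tested, and points are spread vertically for sight only. Most points lie close to 0, and most filled points are orange.

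RpL7-like was higher in dDP discs. Its yeast relative Rlp7 acts in the processing of large subunit ribosomal RNA. Untreated arrays read 11.71, 11.68 and 11.77 in wild type, 11.86, 11.84 and 11.84 in de2f1 and 12.01, 12.15 and 12.16 in dDP discs. Irradiated arrays read 11.83 and 11.74 in wild type, 11.83, 11.93 and 11.84 in de2f1 and 12.05, 12.07 and 11.95 in dDP discs. All 6 dDP arrays lay above all others. The level in dDP exceeded wild type by 0.39 ± 0.05 (1.31-fold, adjusted p = 7.08e-05, n = 3 each) in untreated discs and by 0.24 ± 0.06 (adjusted p = 0.0101) in irradiated discs. It exceeded de2f1 by 0.26 ± 0.05 (adjusted p = 0.00258) in untreated discs, and the difference of 0.15 ± 0.05 in irradiated discs did not pass (adjusted p = 0.0502). In the irradiated comparison with wild type the call was lost after centring (0.15, adjusted p = 0.158). The difference there was 0.19 without wild type array 3, which leaves 1 array in that group. The untreated difference from de2f1 was lost after centring (0.19, adjusted p = 0.0644) and was 0.17 without dDP arrays 2 and 3. One further probe set is shared by RpL7-like and another gene and was not used.

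RpL24-like moved the same way by less. Its yeast relative Rlp24 is replaced by the true subunit protein late in assembly. The dDP arrays read 12.46, 12.60 and 12.50 untreated and 12.46, 12.47 and 12.50 irradiated, and the other 11 arrays 12.29 to 12.40. The groups did not overlap. The difference of dDP from wild type was 0.19 ± 0.04 (1.14-fold, adjusted p = 0.00436) in untreated and 0.14 ± 0.05 (adjusted p = 0.0491) in irradiated discs, and that from de2f1 was 0.16 ± 0.04 (adjusted p = 0.0157) and 0.18 ± 0.04 (adjusted p = 0.00838). Centring kept the sign but ended all 4 calls, with differences of 0.11, 0.06, 0.09 and 0.10. Without untreated dDP arrays 2 and 3 the first difference was 0.13. The difference from irradiated wild type, close to the threshold, held under 7 of 27 alternatives. That from untreated de2f1 was lost without de2f1 array 1 (adjusted p = 0.0697) or dDP array 2 (adjusted p = 0.0739).

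RpLP0-like ran the other way. From the values above, all untreated dDP arrays were below all other untreated arrays, and the irradiated dDP arrays (10.66 to 10.83) were below the other irradiated ones (10.85 to 11.11). The difference of dDP from wild type was -0.30 ± 0.05 (1.23-fold lower, adjusted p = 0.000336) untreated and -0.37 ± 0.06 (1.29-fold lower, adjusted p = 0.000184) irradiated. From de2f1 it was -0.25 ± 0.05 (adjusted p = 0.00216) untreated and -0.13 ± 0.05 (adjusted p = 0.0593) irradiated. In irradiated discs de2f1 was below wild type by -0.24 ± 0.06 (adjusted p = 0.0142), a call that was lost without de2f1 array 1 (adjusted p = 0.0519). The difference was -0.23 without wild type array 1 and -0.24 without wild type array 3, each of which leaves 1 array in that group. In untreated discs the difference of de2f1 from wild type was -0.05 ± 0.05 (adjusted p = 0.628). The 3 genes with assembly factor names therefore did not share a direction in dDP discs.

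**Figure D4:**
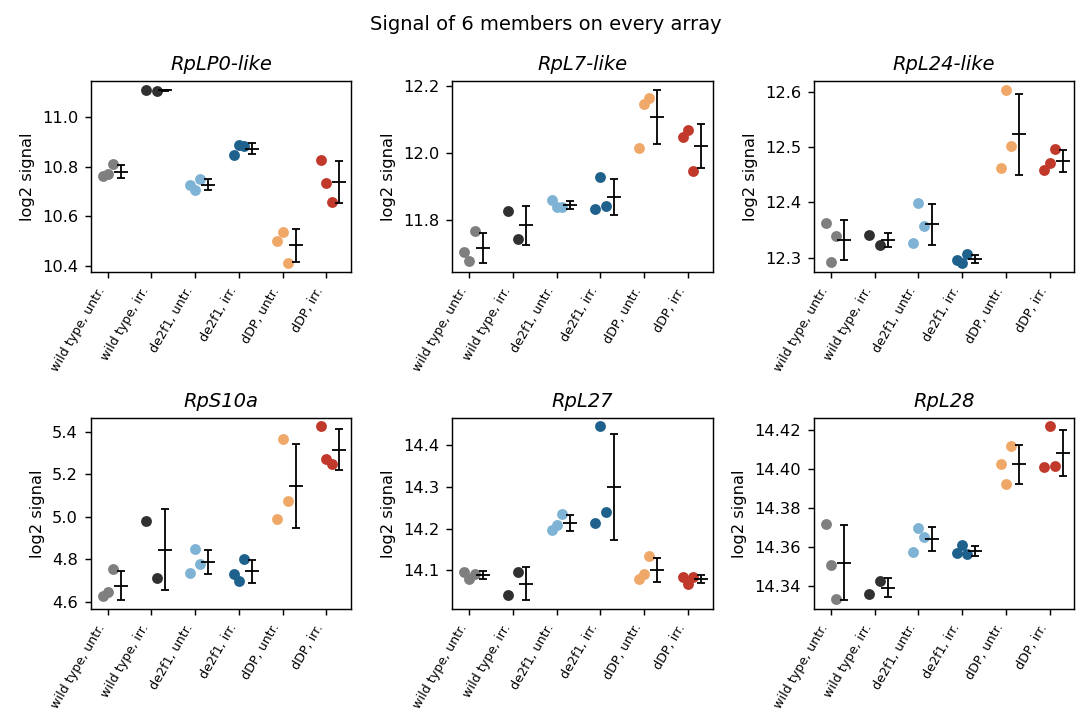
Log2 signal (vertical axis, with its own scale in each panel) of RpLP0-like, RpL7-like, RpL24-like, RpS10a, RpL27 and RpL28 on each array (points) by group, with the group mean ± SD. RpLP0-like is higher in irradiated groups and lowest in untreated dDP, RpL7-like, RpL24-like, RpS10a and RpL28 are highest on dDP arrays, and RpL27 is highest on de2f1 arrays.

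Assembly factors of the fixed list were also divided in dDP discs. Against untreated wild type 2 of the 16 were higher and 6 lower (1 and 9 after centring), where 28.0% of all probe sets were called, with a median of -0.16. Against irradiated wild type 1 was higher and 8 lower (1 and 10 after centring), where 23.2% of all probe sets were called, with a median of -0.17. Without dDP untreated arrays 2 and 3, which leaves array 1 alone, the untreated median was -0.13. Non1, a GTPase of large subunit assembly, read 12.40, 12.30 and 12.26 in untreated wild type and 12.78, 12.83 and 12.87 in untreated dDP discs, a difference of 0.50 ± 0.06 (adjusted p = 9.9e-06). Fib, the methylase of ribosomal RNA, differed by 0.20 ± 0.06 (adjusted p = 0.0164). The RNA helicase pit read 11.05, 10.93 and 11.01 in wild type and 10.69, 10.68 and 10.67 in dDP discs (-0.32 ± 0.05, adjusted p = 0.000465). Nopp140, a nucleolar chaperone, differed by -0.41 ± 0.07 (adjusted p = 0.000676) and bys by -0.24 ± 0.04 (adjusted p = 0.000779). Without dDP untreated arrays 2 and 3 the differences were 0.45 for Non1, 0.12 for Fib, -0.31 for pit, -0.24 for Nopp140 and -0.27 for bys. In de2f1 discs none was called against untreated wild type, where 8.99% of all probe sets were called. Against irradiated wild type 6 were lower and none higher (4 lower after centring), where 8.63% of all probe sets were called. Among them were bys (-0.30, adjusted p = 0.0012), RIOK1, a kinase of small subunit maturation (-0.72, adjusted p = 0.00466), and l(2)k09022 (-0.26, adjusted p = 0.0241).

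RpL27, a protein of the large subunit, was the bright gene with a difference on the de2f1 arrays. It read 14.20, 14.21 and 14.24 in untreated and 14.21, 14.45 and 14.24 in irradiated de2f1 discs. Wild type discs read 14.10, 14.08 and 14.09 untreated and 14.04 and 14.10 irradiated, and dDP discs 14.07 to 14.13. All 6 de2f1 arrays were above all 11 others. The difference from wild type was 0.13 ± 0.05 (adjusted p = 0.199) untreated and 0.23 ± 0.06 (1.17-fold, adjusted p = 0.0269) irradiated. The difference of dDP from de2f1 was -0.11 ± 0.05 (adjusted p = 0.167) untreated and -0.22 ± 0.05 (adjusted p = 0.00749) irradiated. Irradiated de2f1 array 2 held the highest value. Without it the difference from irradiated wild type was 0.16 (adjusted p = 0.061), and with the replicate number as a block it was 0.22 (adjusted p = 0.057). The difference was 0.20 without irradiated wild type array 1 and 0.26 without array 3, each of which leaves 1 array in that group.

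Smaller offsets were seen in other subunit genes. RpS29, a small zinc-binding protein of the small subunit, read 14.39, 14.40 and 14.40 in untreated wild type discs, 14.48, 14.44 and 14.45 in de2f1 and 14.47, 14.53 and 14.52 in dDP discs. The wild type arrays lay below those of both mutants. The difference of dDP from wild type was 0.11 ± 0.04 (1.08-fold, adjusted p = 0.0448), a call close to the threshold that held under 5 of 28 alternatives. The call was lost without any single wild type array, although the difference stayed at 0.11. It was also lost without most single arrays of other groups, which cannot change the difference. RpL34a read 13.23, 13.24 and 13.28 in wild type and 13.34, 13.40 and 13.38 in dDP discs, with de2f1 between at 13.28, 13.30 and 13.31. The difference of dDP from wild type was 0.13 ± 0.04 (1.09-fold, adjusted p = 0.0421), a call that held under 10 of 28 alternatives. It was again lost without any single wild type array, where the difference was 0.12 to 0.14. After centring these differences were 0.02 and 0.04. RpL28, of the large subunit, read 14.39 to 14.42 on the 6 dDP arrays and 14.33 to 14.37 on the other 11, and the difference of 0.05 ± 0.03 in untreated discs did not pass (adjusted p = 0.327). RpL28 was singled out after its values were seen.

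Differences of the bright genes between genotypes were small and are read here against all probe sets, since centring moves every gene of an array alike. In untreated discs the median difference of all 38 members between dDP and wild type was 0.04, where all probe sets had a median of -0.01, and after centring it was -0.05 against -0.10. In irradiated discs it was 0.03 against -0.05, and after centring -0.06 against -0.13. As deposited, 13 of the 29 bright genes had all untreated dDP arrays above all untreated wild type arrays and 1 had them below (16.1% and 20.7% of all probe sets). After centring the counts were 0 and 11 (9.93% and 31.4% of all probe sets), and after quantile normalization 8 and 2 (16.1% and 20.7%). The corresponding counts in irradiated discs were 16 and 2 (18.8% and 31.2% of all probe sets), 0 and 16 after centring (12.8% and 47.8%), and 7 and 4 after quantile normalization (20.2% and 29.5%). For de2f1 against wild type they were 11 and 1 in untreated discs (13.9% and 15.4%) and 10 and 0 in irradiated discs (20.0% and 21.7%), and after centring 5 and 2 (11.1% and 15.5%) and 1 and 0 (17.2% and 22.4%). For dDP against de2f1 they were 7 and 1 untreated (13.8% and 18.3%) and 8 and 3 irradiated (17.8% and 26.8%), and after centring 0 and 5 (8.66% and 27.1%) and 0 and 19 (12.6% and 41.6%). In both comparisons of dDP with wild type the median of the members thus lay above that of all probe sets as deposited. Centring cannot change that gap, and only the sign of the median against 0 turned. After quantile normalization the medians were 0.02 against -0.02 in untreated and 0.0016 against -0.03 in irradiated discs.

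The arrays with the largest actin differences read highest for the bright genes. The median of the bright genes was 14.45 on both dDP untreated arrays with actin differences above 3 and 14.37 to 14.43 on the other 15, dDP untreated array 1 included at 14.41. With the actin difference as a covariate the median difference of the members between untreated dDP and wild type was 0.02, and without these 2 arrays it was also 0.02. RpL37-1, of the large subunit, read 14.46 and 14.45 on them and 14.22 to 14.36 elsewhere. RpL17, also of the large subunit, read 14.32 and 14.30 on them and 14.13 to 14.24 elsewhere. The irradiated dDP arrays had actin differences of 1.96 to 2.11 and medians of 14.41 to 14.43, against 14.39 on both irradiated wild type arrays. Whether RNA quality caused any of these offsets was not tested.

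**Figure D5:**
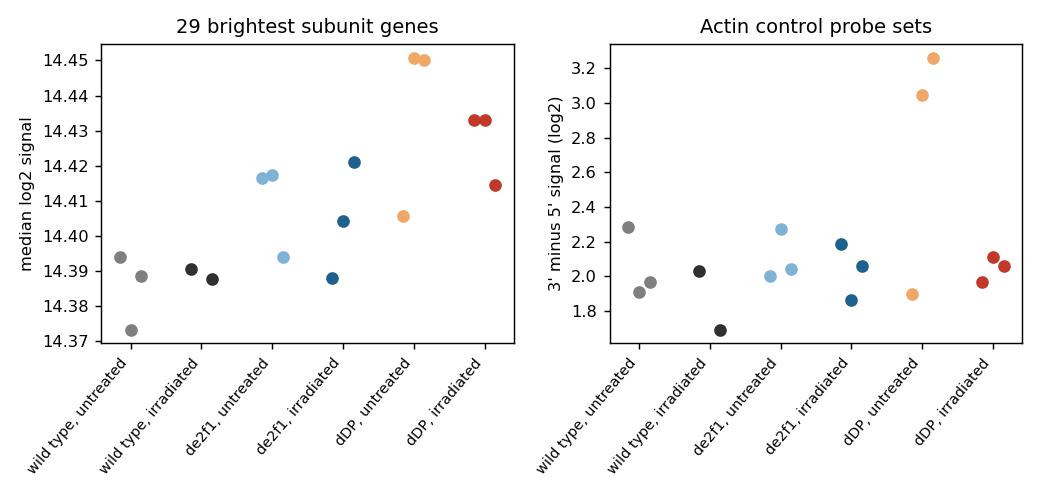
Median log2 signal of the 29 bright subunit genes on each array (left) and the difference between 3-prime and 5-prime actin control probe sets in log2 (right), both by group with 1 point per array. The pair of untreated dDP arrays at 3.05 and 3.26 on the right holds the highest medians on the left, 14.45 each.

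The paralogs were read low, and 1 of the 5 was called. RpS10a, a paralog of the small subunit gene RpS10b, read 4.63, 4.65 and 4.75 in untreated and 4.98 and 4.71 in irradiated wild type discs. It read 4.70 to 4.85 on the 6 de2f1 arrays, 4.99, 5.37 and 5.07 in untreated and 5.42, 5.27 and 5.25 in irradiated dDP discs. All 6 dDP arrays were above all 11 others. The difference of dDP from wild type was 0.47 ± 0.09 (1.38-fold, adjusted p = 0.00159) in untreated and 0.47 ± 0.10 (1.38-fold, adjusted p = 0.00435) in irradiated discs. From de2f1 it was 0.36 ± 0.09 (adjusted p = 0.0128) and 0.57 ± 0.09 (adjusted p = 0.000438). Without untreated dDP arrays 2 and 3 the untreated difference from wild type was 0.31. Without irradiated wild type array 3, which leaves 1 array in that group, the irradiated difference was 0.33. The untreated difference from de2f1 was lost without de2f1 array 1 (0.33, adjusted p = 0.0527), without dDP array 2 (0.25, adjusted p = 0.0558) and after centring (0.28, adjusted p = 0.0671). Leaving out both dDP arrays 2 and 3 gave 0.20. A covariate for the actin difference gave 0.26 (adjusted p = 0.102). Signals this close to the lower quartile of the arrays leave folds uncertain. RpS28a lay at 5.68 to 6.38, RpL37-2 at 6.23 to 6.60, RpS28-like at 4.58 to 5.05 and RpL10Aa at 4.45 to 4.97, and none of these passed in any comparison.

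Some dim probe sets of bright genes differed where the bright one did not. RpL3, a core protein of the large subunit, had probe sets with means of 14.31, 8.83 and 6.08. The dimmest read 5.96, 6.33 and 6.29 in untreated and 6.50 and 6.54 in irradiated wild type discs, and 5.83, 5.46 and 5.87 in untreated and 6.13, 5.99 and 6.22 in irradiated dDP discs. Its difference between untreated dDP and wild type was -0.47 ± 0.11 (adjusted p = 0.00472), while the bright probe set differed by 0.02 and was not called. It was also called for irradiated dDP against wild type (-0.40, adjusted p = 0.0296), irradiated de2f1 against wild type (-0.50, adjusted p = 0.0196), untreated dDP against de2f1 (-0.34, adjusted p = 0.0379) and radiation in dDP discs (0.40, adjusted p = 0.04). The dim probe set of RpS7 (mean 6.02) was lower in untreated dDP than in wild type discs (-0.38 ± 0.11, adjusted p = 0.0199). That of RpS30 (mean 7.70) fell after radiation in dDP discs (-0.27 ± 0.06, adjusted p = 0.0198) and was lower in irradiated dDP than de2f1 discs (-0.22, adjusted p = 0.0195). RpS29 had a second bright probe set (mean 14.38), read at 14.33 to 14.37 in untreated wild type and 14.40 to 14.47 in untreated dDP discs, and another at 4.15, and neither was called, although the bright one too read higher on all untreated dDP arrays than on those of wild type (0.08 against 0.11 for the first). Which transcripts the dim probe sets detect was not analysed here.

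Of 6 elongation and release factors, none was called after radiation, where 4.51% (wild type), 2.30% (de2f1) and 8.84% (dDP) of all probe sets were called. Against wild type 3 were lower in untreated dDP discs (3 after centring, 1 after quantile normalization), where 28.0% of all probe sets were called. They were the release factors eRF3 (-0.25 ± 0.05, adjusted p = 0.00267) and eRF1 (-0.18 ± 0.04, adjusted p = 0.0071) and the exchange factor eEF1delta (-0.15 ± 0.05, adjusted p = 0.023). Without dDP untreated arrays 2 and 3, which leaves array 1 alone, the differences were -0.16, -0.12 and -0.16. Again 3 were lower against untreated de2f1, where 22.3% of all probe sets were called. None was called between de2f1 and wild type, where 8.99% (untreated) and 8.63% (irradiated) of all probe sets were called. Of 6 partners of the ribosome outside the symbol rule, Sec61alpha, of the translocation channel, fell after radiation in wild type discs (-0.26 ± 0.07, adjusted p = 0.0434, no call after centring). Sec61gamma fell in dDP discs (-0.21 ± 0.06, adjusted p = 0.0414), a call lost after centring. Each was the only 1 of the 6 called, where 4.51% of all probe sets were called in wild type and 8.84% in dDP discs. Without dDP untreated arrays 2 and 3 the change of Sec61gamma was -0.23. The channel proteins Sec61beta (-0.19 ± 0.05, adjusted p = 0.00774) and Sec61gamma (-0.23 ± 0.06, adjusted p = 0.00921) were lower in untreated dDP than in wild type discs. These 2 calls among 6 genes, where 28.0% of all probe sets were called, became 3 after centring and 1 after quantile normalization. Without dDP untreated arrays 2 and 3 the differences were -0.27 and -0.22. Both were also lower against untreated de2f1 (22.3% of all probe sets were called), where leaving out those 2 arrays gave -0.23 and -0.20.

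Among 21 genes of growth signalling and of ribosomal protein gene regulation, none was called after radiation in wild type or de2f1 discs (4.51% and 2.30% of all probe sets). In dDP discs 3 rose and none fell (2 after centring), where 8.84% of all probe sets were called. They were REPTOR, a transcription factor active when TOR signalling is low (0.77 ± 0.16, adjusted p = 0.00685), Tif-IA, of RNA polymerase I (0.19 ± 0.05, adjusted p = 0.0193), and the kinase Akt (0.35 ± 0.09, adjusted p = 0.0225). REPTOR read 9.93, 9.30 and 9.27 in untreated and 10.23, 10.21 and 10.37 in irradiated dDP discs. Without dDP untreated arrays 2 and 3, those with large actin differences, the rises were 0.34 for REPTOR, 0.15 for Tif-IA and 0.17 for Akt. That setting leaves only untreated array 1, which had the highest mean of the fat body markers. Between untreated dDP and wild type discs 4 were higher and 3 lower (2 and 6 after centring), where 28.0% of all probe sets were called. The median of the list was -0.17, and it was 0.13 without dDP untreated arrays 2 and 3. The higher ones included REPTOR-BP, the partner of REPTOR (0.43 ± 0.07, adjusted p = 0.000208), gig, which restrains TOR signalling (0.25 ± 0.05, adjusted p = 0.00293), and the stress protein Sesn (0.78 ± 0.18, adjusted p = 0.00389). The lower ones were Tif-IA (-0.21 ± 0.05, adjusted p = 0.00322), the Myc partner Max (-0.22 ± 0.05, adjusted p = 0.00505) and M1BP, which binds promoters of ribosomal protein genes (-0.20 ± 0.05, adjusted p = 0.00727). Without dDP untreated arrays 2 and 3 the differences were 0.28 for REPTOR-BP, 0.21 for gig and 0.77 for Sesn. They were -0.17 for Tif-IA, -0.31 for Max and -0.20 for M1BP. Between untreated de2f1 and wild type discs 8.99% of all probe sets were called. There Sesn (1.14 ± 0.18, adjusted p = 0.000796) and gig (0.22 ± 0.05, adjusted p = 0.0184) were higher and Max was lower (-0.20 ± 0.05, adjusted p = 0.0227), and after centring Sesn alone was called. Sesn read 7.22, 7.74 and 7.28 in untreated wild type, 8.32, 8.49 and 8.84 in de2f1 and 8.18, 8.10 and 8.30 in dDP discs, so that every mutant array lay above every wild type array.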

How the data were processed

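The authors deposited log2 signals, 1 per probe set. Per the submitters' processing notes these came from RMA, in a version not given in the sources used here. They were used without further scaling. Of 18952 probe sets, 183 controls were left out and 18769 tested. Gene names came from the platform annotation, in which 13647 tested probe sets carried 1 symbol (13544 of them current in the RefSeq gene table), 402 several and 4720 none.

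All 17 arrays entered 1 linear model of group means (R 4.3.3, limma 3.58.1, eBayes, prior of 2.56 degrees of freedom and SD 0.0935), and p-values were adjusted by Benjamini-Hochberg over all tested probe sets of a comparison. Errors are standard errors of this fit. A gene was called at an adjusted p under 0.05. Arrays were called apart when no array of one group overlapped the other. The precision is limited by the number of arrays. The code was tested on simulated data for untreated dDP against wild type. There 1 of 29 bright members shifted by 0.1 was called, and 18 of 50 probe sets shifted by 0.3. Few probe sets were shifted there, while 28.0% of all probe sets were called in the data, so the threshold for a call differed. The simulated spread was the one drawn towards the prior, wider than that of the bright genes' own replicates. These counts test the code and do not give the power of the comparisons.

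Named were up to 6 called members per direction and comparison, all probe sets of members with several, Dp, and up to 3 called genes per direction of 4 lists, or otherwise those with the smallest p. The members and lists were chosen with earlier results of these data known. The limits of 14 and 10 that separate bright, middle and low members, the counts of arrays apart under other scalings and the list values without dDP untreated arrays 2 and 3 were chosen after seeing the values. Leaving out dDP untreated arrays 2 and 3 keeps array 1 alone in that group, so differences in that setting are given without p-values. It is among the alternatives counted for single genes. So is leaving out either irradiated wild type array, which also keeps 1 array in its group. The alternatives further include leaving out arrays outside a comparison, which cannot change its difference but can change its p-value. For a gene with 1 probe set, the most variable probe set is the main fit itself. Promoter and protein sequences were not used here. Tables were made with pandas 2.3.3 under Python 3.11.15, and figures with matplotlib 3.10.9.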

Additional observations from a re-analysis of the deposited data

Results flagged for a closer look

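For RpS20, a protein of the small subunit, irradiated and untreated arrays were apart in opposite directions in wild type and de2f1 discs. The gene was picked by a search of all 38 members for this pattern. Of all probe sets, 18.2% were apart lower in wild type and 9.10% apart higher in de2f1 discs. The share with both was not computed. The change of RpS20 was -0.0181 in wild type discs, where both irradiated arrays lay below the 3 untreated ones. It was 0.0173 in de2f1 discs, where all irradiated arrays lay above the untreated ones. Neither change passed the test (limma, adjusted p = 0.934 and 0.952), and the difference between them was 0.04 ± 0.05 (adjusted p = 1).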

How the results depend on the processing

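Counts of called members were recomputed with a trended and robust prior, array weights, without the dimmest 40% of probe sets, under quantile normalization, with each array centred on its median, with the arrays of a comparison alone, with the replicate number as a block, with the actin difference or the salivary gland markers as a covariate, with the most variable probe set of each gene, and without single arrays. For wild type and de2f1 radiation, untreated de2f1 against wild type and both differences of the radiation effect, the count was the same in every setting. For radiation in dDP discs the count of 1 became 0 with its arrays alone and 3 with the most variable probe set. For untreated dDP against wild type the count of 6 became 9 with the trended and robust prior (8 higher and 1 lower) and 10 with array weights. It was 7 without the dimmest probe sets or with the most variable probe set, and 5 under quantile normalization. It was 4 with the replicate block or either covariate, and 3 when centred or with its arrays alone. Without single arrays it was 4 to 10 (10 without dDP array 1). For the comparisons that follow, only the larger moves of the count are given. Without wild type array 1 or 3 the irradiated wild type group holds 1 array. A lower count there does not show that the calls depended on the array left out. For untreated dDP against de2f1 the count of 4 became 2 when centred, 2 with its arrays alone and 2 with the actin covariate. It became 2 to 5 without single arrays (2 without de2f1 array 1 or dDP array 2). For irradiated dDP against wild type the count of 4 became 2 when centred, 2 with its arrays alone, and 1 to 4 without single arrays (1 without wild type array 3). For irradiated de2f1 against wild type the count of 2 became 1 when centred, 1 with its arrays alone, and 0 to 2 without single arrays (0 without either wild type array, 1 without de2f1 array 1 or 2). For irradiated dDP against de2f1 the count of 3 became 5 with array weights, 5 with the actin covariate, and 3 to 5 without single arrays (5 without dDP untreated array 3). Replicate numbers did not pair the samples: correlations of same-numbered deviations ran from -0.395 to 0.459, and 1 of 17 arrays correlated best with its own number. With the replicate block the count was 1 for irradiated de2f1 against wild type and 4 for untreated dDP against wild type. Of 21 called pairs of gene and comparison, 6 were called under every alternative that tested them, namely RpLP0-like for wild type radiation and for dDP against wild type (untreated and irradiated) and against untreated de2f1, RpL7-like for untreated dDP against wild type, and RpS10a for irradiated dDP against de2f1, which has no value without the dimmest probe sets. The most variable probe set turned the sign of RpL3 (0.40 for radiation in dDP, -0.47 and -0.40 for dDP against wild type untreated and irradiated, -0.34 against untreated de2f1), RpS29 (-0.13) and RpS7 (-0.38) for untreated dDP against wild type, and RpS30 (-0.22) for irradiated dDP against de2f1. The cause of these changes was not tested.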
